A study of Salmo salar with 16 samples.

Results

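The genes described here carry the messages between immune cells in the spleen of Atlantic salmon (Salmo salar): cytokines, chemokines, members of the tumor necrosis factor (TNF) superfamily, and their receptors. They were chosen by the letters at the start of the gene ID (il or csf with a digit, ccl, ccr, cxcl, cxcr, xcr, tnf, lif and tgfb) together with a level of at least 0.5 CPM, the count scaled to the total of the library, in at least 4 of 16 fish. Of 41 gene IDs with these letters, 34 reached that level, out of 79140 named genes in the count tables. Fish fed ACJ received 40% soybean meal and 5% of the yeast Cyberlindnera jadinii that had been autolyzed, which means broken down by its own enzymes. Fish fed ICJ received the same amounts of soybean meal and of heat-inactivated C. jadinii, fish fed SBM received 40% soybean meal without yeast, and fish fed FM received the fishmeal control diet. All were juveniles kept in recirculated fresh water under constant light and fed for 37 days, and spleen RNA of 4 fish per diet was sequenced. Compared with FM, the soybean meal diets also held less fishmeal, wheat gluten and potato starch, no cellulose, and added monocalcium phosphate, lysine and methionine. The yeast diets held less wheat gluten and potato starch than SBM, and slightly less fishmeal. Each diet was fed in duplicated tanks, but the labels do not assign fish to tanks, so tank and diet effects cannot be told apart.

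Cytokines are secreted proteins that bind receptors on nearby cells, and most interleukin receptors pass the signal on through Janus kinases and STAT factors. Chemokines guide migrating cells, which carry the matching G protein-coupled receptors, and CXCL12 with CXCR4 and CCL25 with CCR9 are classical pairs of this kind. TNF superfamily ligands act through receptors that recruit TRAF adaptors and switch on NF-kappaB, in inflammation, B cell survival and lymphoid tissue organization. The spleen of fish is a lymphoid organ that also filters blood, and it holds macrophages, lymphocytes, red blood cells, thrombocytes and a stroma that produces homing chemokines. In such bulk RNA, fewer cells of a type and less RNA per cell cannot be told apart.

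The counts summed to between 5032593 in ACJ replicate 4 and 9100203 in SBM replicate 4. Markers of macrophages, B cells, T cells and erythroid cells were detected in every fish. In the order ACJ, ICJ, SBM and FM, the summed level of 25 erythroid genes, mostly hemoglobins, ranged over 37700 to 42300, 15500 to 67100, 16300 to 29000 and 38100 to 76900 CPM. The 5 B cell markers summed to 249 to 270, 254 to 339, 278 to 309 and 330 to 479 CPM in the same order. The 7 macrophage and dendritic cell markers ranged from 7730 to 11400 CPM over all fish and the 6 T cell markers from 174 to 221 CPM. The 5 neutrophil markers summed to 1250 CPM in ACJ replicate 4, against 187 to 349 CPM in the other fish. None of these markers passed edgeR's adjusted test in any comparison. At an unadjusted p below 0.05, edgeR's test had 22 of 24 tested erythroid genes lower in SBM|FM (91.7%, against 14.7% of all genes tested). Of the 5 B cell markers, 4 were lower in ACJ|FM (80% against 14.9%), 4 in SBM|FM (80% against 14.7%) and 3 in ICJ|FM (60% against 9.26%). DESeq2 called 14 erythroid genes lower in SBM|FM (3.67% of the genes it gave an adjusted p). It called 3 B cell markers lower in ACJ|FM (2.8%) and 1 in SBM|FM. For the mean of ACJ, ICJ and SBM over FM, DESeq2 called 4 B cell markers lower (4.37%) and 0 erythroid genes. At an unadjusted p below 0.05, edgeR's test there had 17 erythroid genes lower (70.8%, against 16.5% of all genes tested). It had 4 B cell markers lower (80%).

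The 34 genes comprised 4 interleukin ligands, 7 interleukin receptors or binding proteins, 4 chemokine ligands, 5 chemokine receptors, 4 TNF superfamily ligands, 3 TNF receptor superfamily members, 3 colony stimulating factors or receptors and 1 transforming growth factor. The remaining 3, tnfaip1, tnfaip2 and tnfaip3, encode proteins induced by TNF and matched by their letters only. Per kilobase of exon, the chemokine ligands cxcl12 (274 CPM per kb) and ccl25 (123) stood highest, followed by the receptors il6ra (61.7), csf3r (59.6), il31r (21.4) and ccr9 (21.1). Both of these chemokines guide homing. This ranking depends on exon length, as the annotated exons of cxcl12 hold only 413 bases. In CPM not divided by length, csf3r (212) and il6ra (184) stood above ccl25 (121) and cxcl12 (113). Of the other ligands, il18 had 13.4, il34 7.66, tnfsf11 7.56, il4/13a 5.35, csf1 2.96 and ccl8 2.62 CPM per kb, and the remaining 7 ranged from 0.0846 in il17d to 1.13 in il8, with 0.354 in tnf-alpha-1 and 0.352 in il11.

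**Figure D1:**
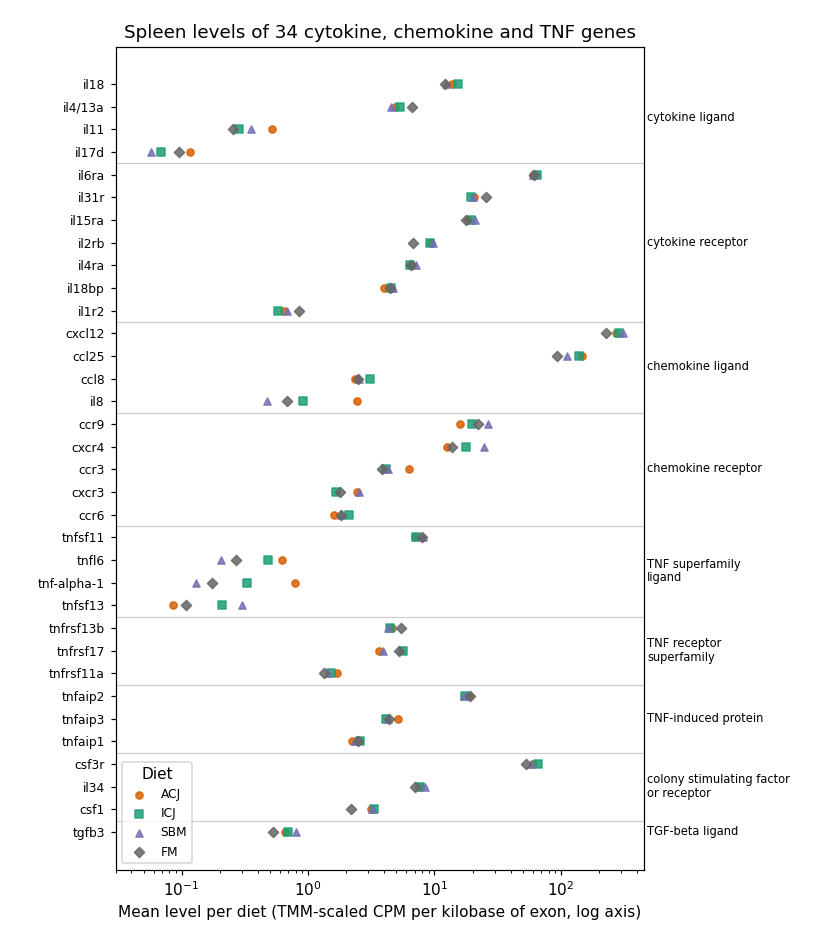
Mean level of each of the 34 genes per diet, as TMM-scaled CPM per kilobase of exon on a log axis, with genes grouped by role and a point for ACJ, ICJ, SBM and FM. The genes span from 0.0846 (il17d) to 274 CPM per kb (cxcl12) averaged over 16 fish, and for most genes the 4 diets lie close together compared with the distance between genes.

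Of the 34 genes, 29 passed edgeR's filter on low counts and were tested together with all other genes, 28929 in all. The 5 that did not pass were il8, tnf-alpha-1, tnfsf13, tnfl6 and il17d. A gene was called where its adjusted p (edgeR's quasi-likelihood test, Benjamini-Hochberg over 28929 genes) was below 0.05. In SBM|FM, which is SBM over FM, 1 of the 29 was called, cxcl12, against 0.432% of all genes tested. The mean of the soybean diets ACJ, ICJ and SBM over FM also gave 1 call, cxcl12, against 0.992% of all genes. No member was called in ACJ|FM (0.235% of all genes), in ICJ|FM (0.0104%) or in the test for any difference among the 4 diets (0.0277%; DESeq2 called 2 there, ccr9 and cxcl12). In ACJ|SBM, ICJ|SBM and ACJ|ICJ, 0% of all genes and no member were called.

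At an unadjusted p below 0.05 by the same edgeR test, the members counted 7 in ACJ|FM (5 higher, 2 lower), which is 24.1% against 14.9% of all genes tested. They counted 5 in ICJ|FM (4 higher, 1 lower), or 17.2% against 9.26%. In SBM|FM they were 4 (3 higher, 1 lower), or 13.8% against 14.7%, so this share was near the background. The mean of the soybean diets over FM had 5 (4 higher, 1 lower), or 17.2% against 16.5%. Between the soybean diets there were 3 in ACJ|SBM (1 higher, 2 lower; 10.3% against 6.9%), 3 in ICJ|SBM (1 higher, 2 lower; 10.3% against 4.99%) and 2 in ACJ|ICJ (both higher; 6.9% against 5.67%). The test for any difference had 6, or 20.7% against 12.2%. The median log2 fold change of the members was 0.01 in ACJ|FM, 0.11 in ICJ|FM and 0.10 in SBM|FM, with medians of all genes between -0.01 and 0. These 3 comparisons share the 4 FM fish. DESeq2, run as another tool, called no member in ACJ|FM (2.8% of the genes it gave an adjusted p), ICJ|FM (1.27%), ACJ|SBM (0.0127%), ICJ|SBM (0.00847%) or ACJ|ICJ (0.0127%) either. It called cxcl12 in SBM|FM (3.67% of the genes it gave an adjusted p), cxcl12 and csf1 for the soybean diets over FM (4.37%), and 2 members in the test for any difference (2.75%). Genes to which DESeq2 gave no adjusted p, which can include members, could not be called.

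**Figure D2:**
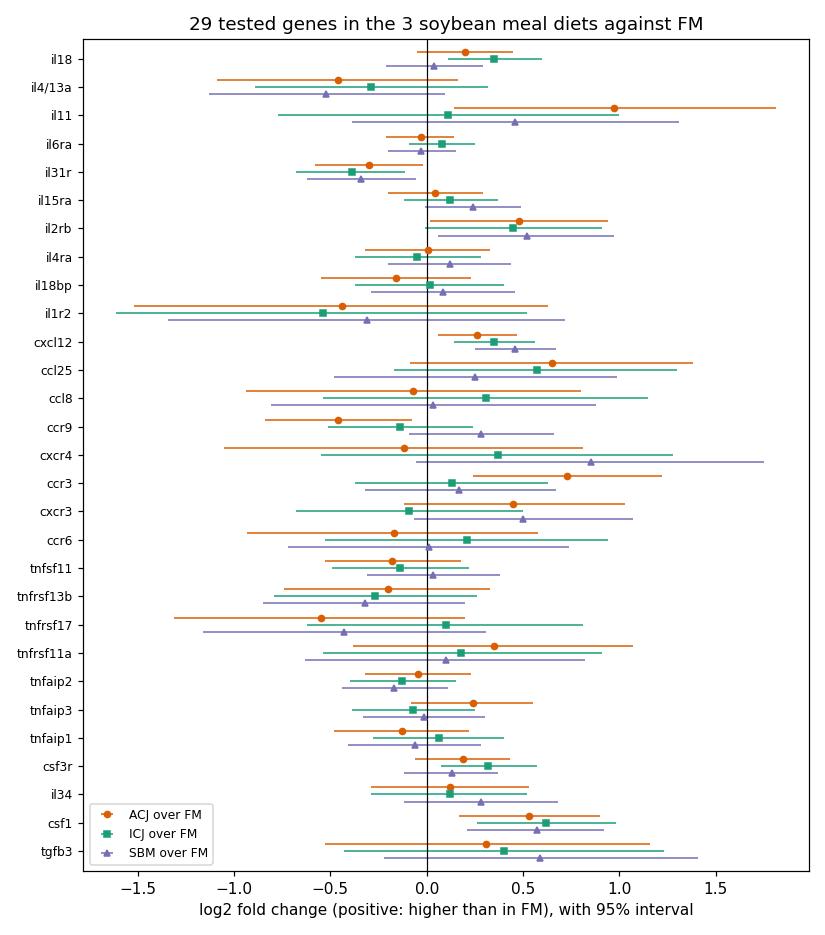
The log2 fold change of the 29 tested genes in ACJ, ICJ and SBM over FM, with points for the estimate and lines for the 95% interval of edgeR's quasi-likelihood fit, and genes grouped by role. The intervals of cxcl12 and csf1 lie above 0 and those of il31r below 0 in all 3 comparisons, and the interval of cxcl12 in SBM over FM spans 0.25 to 0.67.

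The chemokine cxcl12 has an ID without a match in RefSeq's present annotation. In mammals it holds blood and immune cells in their niches and is made by stromal cells. It lies on chromosome 18 of ICSASG_v2 (3719997 to 3758289) and had 113, 119, 117 and 99.6 CPM in ACJ, 112, 144, 112 and 107 CPM in ICJ, 145, 127, 134 and 107 CPM in SBM, and 95.5, 91.6, 97.1 and 88.9 CPM in FM. All 12 fish on soybean meal were above all 4 FM fish. The mean was 128 CPM in SBM (SD 16, n = 4) and 93.3 CPM in FM (SD 3.76, n = 4), and the log2 fold change of 0.46 (SE 0.10) passed edgeR's quasi-likelihood test with an adjusted p of 0.0479. For the mean of the soybean diets over FM it was 0.36 (SE 0.08), with an adjusted p of 0.0457 in the same edgeR test. In ICJ|FM (log2 fold change 0.35, adjusted p 0.259) and ACJ|FM (0.26, adjusted p 0.223) edgeR's test did not call the gene, while the fish of each pair did not overlap either (exact permutation test, two-sided, p = 0.0286, the smallest that 4 against 4 fish allow). That p follows from the lack of overlap and is not adjusted for the number of genes. The share of all genes without overlap between diets was not counted. A lack of overlap, here and for the genes below, therefore only describes the fish.

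The call of cxcl12 was close to the threshold. Fitting only the 8 fish of SBM and FM gave an adjusted p of 0.0793, and edgeR's likelihood ratio test gave 0.0572 for the soybean diets over FM. Of 16 fits that each left out 1 fish, 5 kept the call in SBM|FM, those without FM replicate 1, SBM replicate 4, ICJ replicate 2, ICJ replicate 4 or ACJ replicate 4, and leaving out any of the others ended it, with adjusted p of 0.0207 to 0.143 over all 16. For the soybean diets over FM, 6 of 16 kept it, the same 5 and the fit without ICJ replicate 3, with 0.0347 to 0.147, while the log2 fold change stayed between 0.32 and 0.38. The erythroid sums were also without overlap between SBM and FM, as were the B cell sums. With the hemoglobin genes removed from the counts the adjusted p of cxcl12 in SBM|FM was 0.0482 by edgeR. This refit changes the library totals only and cannot show the part of red blood cells in the result. The 3 thrombocyte markers summed to 168 to 248 CPM in SBM, against 276 to 452 CPM in FM. DESeq2 called 2 of them lower in SBM|FM, LOC106600877 (itga2b) and LOC106571903 (gp9), against 3.67% of the genes it gave an adjusted p, while edgeR called none. Endothelial and stromal markers (4 genes) summed to 2700 to 3030 CPM in SBM, against 1680 to 3090 CPM in FM. The part of the erythroid, B cell, thrombocyte and stromal markers in the result was not tested.

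The receptor of CXCL12, cxcr4, lies on chromosome 25 (10347591 to 10349559). It had 20.8, 20.3, 20.6 and 20.7 CPM in ACJ, 27.6, 53.3, 19.0 and 16.5 CPM in ICJ, 24.6, 35.2, 63.6 and 37.8 CPM in SBM, and 41.1, 17.3, 15.8 and 15.7 CPM in FM. The ACJ fish were nearly equal and all lay below all SBM fish, while ICJ replicate 2 and FM replicate 1 stood well above the others of their diets. In ACJ|SBM the log2 fold change was -0.97 (SE 0.42) with an adjusted p of 0.712 in edgeR's test, and without SBM replicate 3 it was -0.66. In SBM|FM it was 0.85 (95% interval -0.06 to 1.75, adjusted p 0.372). Within the diets, cxcr4 was among the 3 tested members with the largest spread, with an SD of 0.57 on the log2 scale, whereas that of cxcl12 was 0.15.

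The other homing chemokine at a high level, ccl25, attracts lymphocytes to thymus and gut in mammals and is named ccl25b in RefSeq's present annotation. Its level was 152, 154, 189 and 82.6 CPM in ACJ, 189, 190, 83.7 and 85 CPM in ICJ, 98.0, 137, 79.7 and 127 CPM in SBM, and 91.2, 128, 74.4 and 75.9 CPM in FM. Fish of the same diet differed by more than the diets did, as ICJ replicates 1 and 2 had, with ACJ replicate 3, the highest levels of all and ICJ replicates 3 and 4 were near the lowest. Relative to FM, the log2 fold change was 0.65 in ACJ (95% interval -0.09 to 1.38, adjusted p 0.399), 0.57 in ICJ (-0.17 to 1.30, adjusted p 0.647) and 0.25 in SBM, and none was called by edgeR's test.

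Its receptor in mammals is CCR9, and the salmon gene ccr9 (ccr9a in the present annotation) lies on chromosome 14 (5372143 to 5375220). It had 32.9, 43.0, 37.9 and 29.4 CPM in ACJ, 55.1, 50.8, 35.6 and 38.0 CPM in ICJ, 50.9, 57.6, 71.8 and 59.4 CPM in SBM, and 68.0, 44.0, 42.1 and 43.2 CPM in FM. All ACJ fish were below all SBM fish, and FM replicate 1 stood above the other FM fish. In ACJ|SBM the log2 fold change was -0.74 (SE 0.18, adjusted p 0.602 by edgeR, unadjusted exact permutation p = 0.0286 as the lack of overlap fixes it, n = 4 each), which had the smallest edgeR p of the 29 members there. In ICJ|SBM it was -0.42 (adjusted p 0.967) and in ACJ|FM -0.46 (adjusted p 0.248), and no gene at all was called by edgeR between the soybean diets. DESeq2 called ccr9 in the test for any difference among the diets, whereas edgeR's test gave an adjusted p of 0.248.

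The gene with the ID ccr3, a chemokine receptor named ccr12a in the present annotation, lies on chromosome 14 (25493251 to 25495694). Its level was 15.6, 12.3, 12.8 and 14.9 CPM in ACJ, 8.09, 11.1, 7.06 and 10.6 CPM in ICJ, 12.8, 8.57, 6.73 and 9.63 CPM in SBM, and 11.1, 4.59, 8.27 and 9.84 CPM in FM. The ACJ fish were above all ICJ and all FM fish, and overlapped with SBM only through SBM replicate 1. The log2 fold change was 0.73 in ACJ|FM (SE 0.23, adjusted p 0.159), 0.59 in ACJ|ICJ (SE 0.23, adjusted p 0.871) and 0.56 in ACJ|SBM (SE 0.23, adjusted p 0.711), and edgeR's test called none of them. Over the single fish left out, the value in ACJ|FM ran from 0.51 to 0.90.

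Of the other chemokine receptors, cxcr3 responds to interferon-induced chemokines and is carried by activated T cells in mammals. It had 7.31, 6.76, 4.59 and 4.68 CPM in ACJ, 2.65, 4.30, 3.14 and 5.96 CPM in ICJ, 3.69, 7.94, 6.32 and 6.24 CPM in SBM, and 3.93, 3.44, 4.58 and 5.17 CPM in FM. The diets overlapped in all comparisons, and the log2 fold change in ICJ|SBM, -0.59 (SE 0.27), had an adjusted p of 0.967 in edgeR's test. The receptor ccr6, which binds CCL20 in mammals and was chosen after its values were seen, ranged from 1.67 CPM in FM replicate 4 to 6.78 CPM in FM replicate 1, so that the span of a single diet covered all other fish. FM replicate 1 was the highest FM fish in ccr9, cxcr4 and ccr6.

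**Figure D3:**
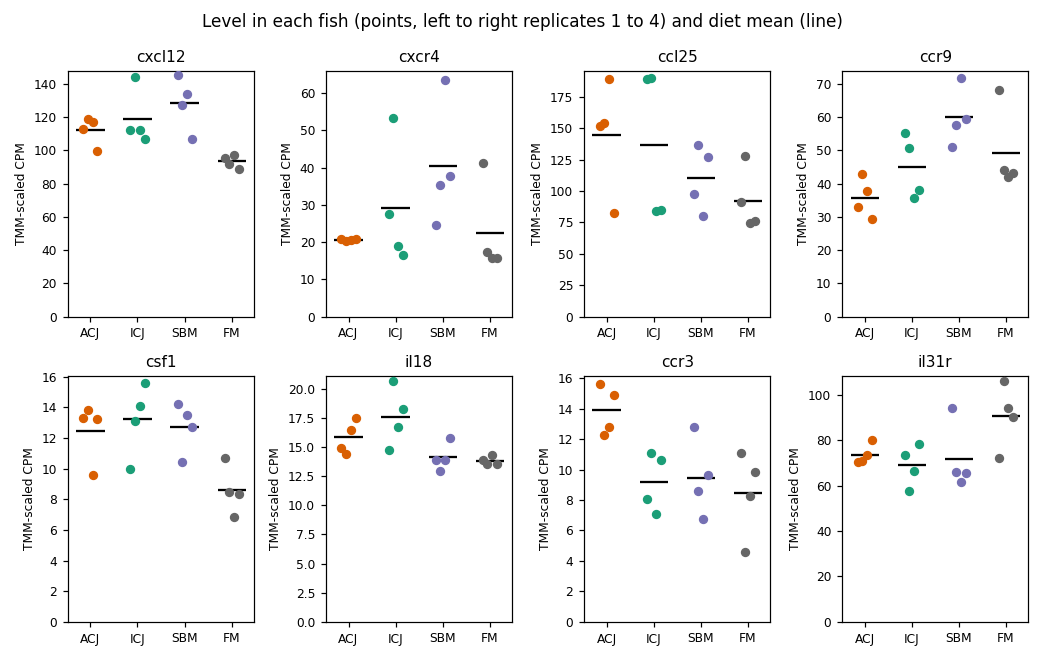
TMM-scaled CPM of cxcl12, cxcr4, ccl25, ccr9, csf1, il18, ccr3 and il31r in each fish (points) with the mean of each diet (line), for ACJ, ICJ, SBM and FM. All fish on the soybean diets lie above the 88.9 to 97.1 CPM of the FM fish in cxcl12, and the ACJ fish lie below the SBM fish in both cxcr4 and ccr9. In ACJ|SBM, edgeR's test called neither cxcr4 (adjusted p 0.712) nor ccr9 (adjusted p 0.602).

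Among the remaining chemokine ligands, ccl8 attracts monocytes in mammals and had the largest spread within the diets among the 29 tested members together with cxcr4, with an SD of 0.57 on the log2 scale, while the untested il8 and tnf-alpha-1 had 0.78 and 0.61. Its mean was 5.61 CPM in ACJ (SD 2.15), 7.38 in ICJ (SD 4.92), 6.06 in SBM (SD 1.49) and 5.86 in FM (SD 2.07, n = 4 each), and ICJ replicate 2 reached 14.6 CPM. The neutrophil-attracting chemokine il8, named here after its values were seen, is described with tnf-alpha-1.

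The interleukin ligand with the highest level was il18, a cytokine of the interleukin-1 family that is released on inflammasome activation and induces interferon gamma in mammals. It lies on chromosome 20 (52086204 to 52090512) and had 14.9, 14.4, 16.5 and 17.5 CPM in ACJ, 14.7, 20.7, 16.7 and 18.3 CPM in ICJ, 13.9, 12.9, 13.9 and 15.8 CPM in SBM, and 13.9, 13.5, 14.3 and 13.5 CPM in FM. No ACJ or ICJ fish was as low as any FM fish, while SBM lay around the FM level. Its log2 fold change was 0.35 in ICJ|FM (SE 0.12, adjusted p 0.344), 0.31 in ICJ|SBM (SE 0.12, adjusted p 0.967) and 0.20 in ACJ|FM (adjusted p 0.454), none of them called by edgeR's test. Its soluble inhibitor il18bp, chosen after its values were seen, averaged 4.82 CPM in ACJ (SD 0.77), 5.49 in ICJ (SD 0.57), 5.72 in SBM (SD 0.58) and 5.40 in FM (SD 1.04, n = 4 each).

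The other interleukin ligands were low. The gene il4/13a, the fish counterpart of interleukin-4 and interleukin-13 in type 2 immunity, averaged 2.20 CPM in ACJ (SD 0.44), 2.45 in ICJ (SD 0.54), 2.07 in SBM (SD 0.69) and 3.02 in FM (SD 0.72, n = 4 each). In SBM|FM its log2 fold change was -0.52 (95% interval -1.13 to 0.09, adjusted p 0.432 in edgeR's test). The gene il11, a member of the interleukin-6 family, had 1.43, 1.8, 2.49 and 2.34 CPM in ACJ, 1.18, 1.66, 0.915 and 0.709 CPM in ICJ, 1.28, 1.4, 1.10 and 1.8 CPM in SBM, and 0.536, 1.43, 0.528 and 1.5 CPM in FM. The ACJ fish had the highest levels as a group and overlapped with every other diet. The log2 fold change of il11 was 0.97 in ACJ|FM (SE 0.40, adjusted p 0.255) and 0.86 in ACJ|ICJ (SE 0.39, adjusted p 0.871), without a call by edgeR's test.

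Among the interleukin receptors, il31r, named after the receptor of interleukin-31, was lower in the soybean diets at an unadjusted p only when all fish were fitted. It had 70.5, 70.8, 73.5 and 80.3 CPM in ACJ, 73.4, 57.9, 66.3 and 78.6 CPM in ICJ, 94.2, 65.9, 61.5 and 65.8 CPM in SBM, and 72.3, 106, 94.5 and 90.5 CPM in FM. FM replicate 1 lay within the range of the soybean diets, and SBM replicate 1 lay within that of FM. Relative to FM, the log2 fold change was -0.30 in ACJ (adjusted p 0.300), -0.39 in ICJ (adjusted p 0.352) and -0.34 in SBM (adjusted p 0.239), and -0.34 for the mean of the soybean diets (SE 0.11, adjusted p 0.120), all by edgeR's test. Without SBM replicate 1 the value in SBM|FM was -0.50 with an adjusted p of 0.0833. For the soybean diets over FM, edgeR's test called il31r lower when either of 2 fish was left out, with -0.40 without SBM replicate 1 (adjusted p 0.0413) and -0.43 without FM replicate 1 (adjusted p 0.0387). Over all genes, these fits called 267 of 29324 and 1005 of 29350, against 287 of 28929 with all fish.

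The beta chain of the interleukin-2 and interleukin-15 receptors, il2rb, was chosen after its values were seen. It had 27.6, 24.9, 11.9 and 17.5 CPM in ACJ, 20.9, 21.9, 19.9 and 17.9 CPM in ICJ, 16.9, 24.8, 18.3 and 24.0 CPM in SBM, and 18.2, 14.6, 11.1 and 14.8 CPM in FM. FM had the lowest mean, with overlap in every comparison, and the log2 fold change of the soybean diets over FM was 0.48 (SE 0.18, adjusted p 0.195 by edgeR). The spread between the fish of a diet was 0.34 on the log2 scale in il2rb, 0.12 in il6ra, 0.18 in il15ra, 0.23 in il4ra and 0.49 in the decoy receptor il1r2 (SD). The mean of il6ra was 180 CPM in ACJ (SD 19.1), 194 in ICJ (SD 16.1), 180 in SBM (SD 2.28) and 184 in FM (SD 16.5, n = 4 each), and its log2 fold change over FM for the mean of the soybean diets had a 95% interval of -0.13 to 0.15. The other members of this class, il15ra, il4ra and il1r2, averaged 62.9, 18.1 and 1.06 CPM over all fish, and none was called.

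Of the colony stimulating factors, csf1, also without a match in RefSeq's present annotation, drives the growth and survival of macrophages. It lies on chromosome 22 (40326799 to 40351424). It had 13.3, 13.8, 9.57 and 13.2 CPM in ACJ, 10, 13.1, 14.1 and 15.6 CPM in ICJ, 14.2, 10.4, 13.5 and 12.7 CPM in SBM, and 10.7, 8.45, 6.86 and 8.34 CPM in FM. Each soybean diet overlapped with FM through a single low fish and FM replicate 1. For csf1 the log2 fold change was 0.53 in ACJ|FM (SE 0.17, adjusted p 0.161), 0.62 in ICJ|FM (SE 0.17, adjusted p 0.248) and 0.57 in SBM|FM (SE 0.17, adjusted p 0.133). The mean of the soybean diets over FM gave 0.57 (SE 0.14) with an adjusted p of 0.065, which missed the threshold in edgeR's quasi-likelihood test, while edgeR's likelihood ratio test and DESeq2 called it, as did edgeR's quasi-likelihood test without FM replicate 1 (adjusted p 0.0237). Over all genes, the fit without FM replicate 1 called 1005 of 29350 there, against 287 of 28929 with all fish. The likelihood ratio test called 472 of 28929. Macrophage and dendritic cell markers summed to 9300 to 10600 CPM in ACJ, 9740 to 11400 in ICJ, 8830 to 11200 in SBM and 7730 to 10500 in FM, where FM replicate 1 was again the highest FM fish. Of the 6 tested, none was called by edgeR. At an unadjusted p below 0.05 by edgeR's test, 1 was higher in ACJ|FM (16.7%, against 14.9% of all genes tested) and 3 in ICJ|FM (50% against 9.26%). In SBM|FM 4 were higher (66.7% against 14.7%) and for the soybean diets over FM 3 (50% against 16.5%), and none was lower in these. DESeq2 called LOC106604844 (cd74a) higher in ICJ|FM (1.27% of the genes it gave an adjusted p), and LOC106604844 and c1qb_1 for the soybean diets over FM (4.37%). The part of these markers in the difference in csf1 was not tested.

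The second ligand of the same receptor, il34, averaged 12.6 CPM in ACJ (SD 1.19), 12.6 in ICJ (SD 4.13), 13.9 in SBM (SD 1.65) and 11.5 in FM (SD 2.40, n = 4 each). Its log2 fold change of the soybean diets over FM was 0.17 (95% interval -0.16 to 0.51, adjusted p 0.649 by edgeR). Per kilobase, il34 (7.66 CPM per kb) had a higher level than csf1 (2.96). The receptor gene itself, LOC106611874 (macrophage colony-stimulating factor 1 receptor 1-like, from the study's own gene lists on these fish and thus not independent evidence), had 565, 519, 570 and 420 CPM in ACJ, 551, 620, 697 and 693 CPM in ICJ, 544, 552, 585 and 580 CPM in SBM, and 518, 476, 418 and 400 CPM in FM. No ICJ or SBM fish was as low as any FM fish, and ACJ overlapped with FM through ACJ replicate 4. The log2 fold change of LOC106611874 for the soybean diets over FM was 0.34 (SE 0.09) with an adjusted p of 0.0631 by edgeR, which missed the threshold, while DESeq2 called it higher there (adjusted p 0.0101) and in ICJ|FM. Without FM replicate 1 or ACJ replicate 4, edgeR's test also called LOC106611874 for the soybean diets over FM (adjusted p 0.0216 and 0.0287). Over all genes, these fits called 1005 of 29350 and 376 of 29331, against 287 of 28929 with all fish.

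The receptor of granulocyte colony-stimulating factor, csf3r, is carried by neutrophils and their precursors. It had 211, 202, 199 and 252 CPM in ACJ, 241, 259, 207 and 241 CPM in ICJ, 187, 221, 189 and 230 CPM in SBM, and 239, 179, 155 and 186 CPM in FM. The diets overlapped, and the log2 fold change in ICJ|FM was 0.32 (SE 0.12, adjusted p 0.396 by edgeR). The single transforming growth factor, tgfb3, averaged 1.74 CPM in ACJ (SD 0.57), 1.85 in ICJ (SD 0.72), 2.15 in SBM (SD 0.71) and 1.42 in FM (SD 0.65, n = 4 each), and its log2 fold change of 0.44 for the soybean diets over FM had a 95% interval of -0.26 to 1.13.

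In the TNF superfamily, tnfsf11 (the ligand RANKL) was the only ligand high enough to be tested. It averaged 18.5 CPM in ACJ (SD 2.82), 18.9 in ICJ (SD 5.42), 21.3 in SBM (SD 2.56) and 20.9 in FM (SD 1.76, n = 4 each), and its log2 fold change for the soybean diets over FM had a 95% interval of -0.38 to 0.20. Its receptor tnfrsf11a (RANK) had a wide spread within the diets, with an SD of 0.51 on the log2 scale, and was highest in SBM replicate 1 with 8.67 CPM and lowest in FM replicate 1 with 2.14 CPM. Neither extreme was shared by its diet, as the other SBM fish had 3.58 to 4.67 CPM and the other FM fish 4.83 to 6.16 CPM.

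The receptors tnfrsf13b (TACI) and tnfrsf17 (BCMA) sit on B cells and plasma cells and bind the survival factors BAFF and APRIL. The level of tnfrsf13b averaged 4.38 CPM in ACJ (SD 0.70), 4.23 in ICJ (SD 1.24), 4.04 in SBM (SD 1.11) and 5.09 in FM (SD 1.06, n = 4 each), and the log2 fold change for the soybean diets over FM was -0.26 (95% interval -0.69 to 0.16). The level of tnfrsf17 was 2.06, 2.86, 2.23 and 2.77 CPM in ACJ, 1.76, 2.48, 6.01 and 5.11 CPM in ICJ, 3.13, 2.65, 2.34 and 2.64 CPM in SBM, and 4.11, 5.02, 1.76 and 3.5 CPM in FM. ICJ and FM each spanned low and high fish, whereas ACJ and SBM were tight. The B cell marker sums of ACJ (249 to 270 CPM) and SBM fish (278 to 309 CPM) all lay below those of FM fish (330 to 479 CPM), and the part of B cells in these receptor levels was not tested.

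The APRIL gene tnfsf13, chosen after its values were seen, was at or near the detection limit. It had counts of 0, 1, 4 and 0 in ACJ, 4, 3, 1 and 3 in ICJ, 6, 3, 3 and 6 in SBM, and 0, 0, 3 and 2 in FM. A count of 0 allows a level of up to 3 counts, which is 0.331 to 0.598 CPM depending on the fish and covers counting error only. Counts were above 0 in all ICJ and all SBM fish, but differences of this size are not readable at this depth. The gene tnfl6, the short name of Fas ligand, which induces cell death, had 0.635, 1.20, 0.524 and 0.639 CPM in ACJ, 0.441, 0.662, 0.654 and 0.567 CPM in ICJ, 0.142, 0.467, 0.275 and 0.106 CPM in SBM, and 0.357, 0.430, 0.352 and 0.167 CPM in FM. The ACJ fish were above the SBM and FM fish, and each of these levels rests on 1 to 8 counts, so no difference was tested. The gene reached the 0.5 CPM of the rule in 7 fish, all of them on ACJ or ICJ. The separation from SBM and FM therefore follows in part from how the genes were chosen.

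ACJ replicate 4 was the highest fish in il8 and tnf-alpha-1, whereas il11 was highest in ACJ replicate 3 and il18, ccl8 and il17d in ICJ replicate 2. The neutrophil-attracting chemokine il8 had 0.476, 0.451, 3.14 and 5.11 CPM in ACJ, 0.735, 0.497, 1.05 and 1.13 CPM in ICJ, 0.568, 0.156, 0.824 and 0.212 CPM in SBM, and 0.357, 0.143, 1.06 and 1 CPM in FM. ACJ replicates 3 and 4, with 24 counts each, were above all other fish, and ACJ replicates 1 and 2, with 3 counts each, were as low as the other diets. The cytokine tnf-alpha-1, also chosen after its values were seen, had 0.476, 0.451, 0.655 and 2.77 CPM in ACJ, 0.441, 0.662, 0 and 0.709 CPM in ICJ, 0.284, 0.156, 0.275 and 0 CPM in SBM, and 0, 0.430, 0.528 and 0 CPM in FM. Its 13 counts in ACJ replicate 4 were the most in any fish, and the other 15 fish had 0 to 5.

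Among the proteins induced by TNF, tnfaip3 and tnfaip2 were highest in the same fish. The ubiquitin-editing inhibitor of NF-kappaB, tnfaip3 (A20), had 19.5, 21.3, 24.8 and 36.2 CPM in ACJ, 21.2, 19.9, 20.1 and 20.6 CPM in ICJ, 20.3, 23.2, 17.2 and 24.2 CPM in SBM, and 22.3, 21.6, 20.4 and 21.5 CPM in FM. In ACJ|ICJ its log2 fold change was 0.31 (SE 0.15, adjusted p 0.871 by edgeR), and without ACJ replicate 4 it was 0.12. For tnfaip2 the values were 35.4, 39.2, 47.8 and 62.4 CPM in ACJ, with 40.9 to 46.2 CPM in ICJ, 38.5 to 48.3 CPM in SBM and 45.2 to 51.9 CPM in FM. ACJ thus held both the lowest and the highest fish in tnfaip2, and the third gene, tnfaip1, also chosen after its values were seen, averaged 9.24 CPM over all fish and was lowest in ACJ replicate 4, with 6.17 CPM.

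The same fish stood apart in neutrophil markers. The collagenase mmp13 had 26.7, 27.3, 55.6 and 594 CPM in ACJ, against 20 to 35.8 CPM in ICJ, 14.1 to 85 CPM in SBM and 19.7 to 56.8 CPM in FM. The gelatinase mmp9 had 354 CPM in ACJ replicate 4, against 16.9 to 71.0 CPM in the other fish. The part of neutrophils in the levels of il8, tnf-alpha-1 and tnfaip3 was not tested. Without ACJ replicate 4, the number of members called was 0 in ACJ|FM, 0 in ACJ|SBM and 0 in ACJ|ICJ, as with it, and cxcl12 kept its call in SBM|FM (adjusted p 0.0413 by edgeR).

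**Figure D4:**
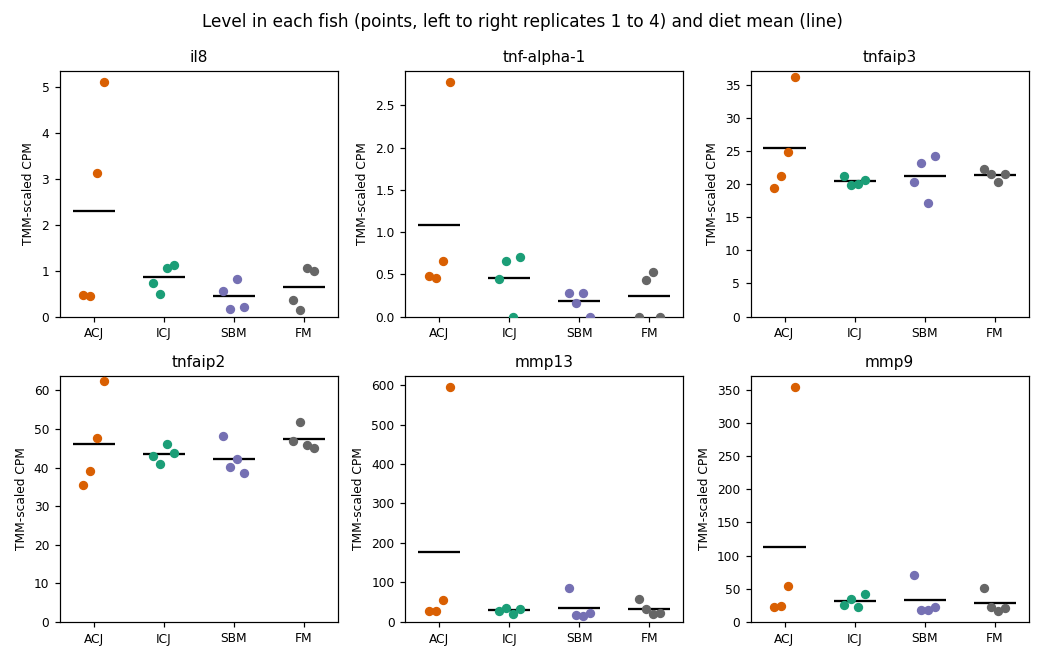
TMM-scaled CPM of il8, tnf-alpha-1, tnfaip3 and tnfaip2 and of the neutrophil markers mmp13 and mmp9 in each fish (points) with the mean of each diet (line), for ACJ, ICJ, SBM and FM. ACJ replicate 4 is the highest fish in all 6 panels, from 2.77 CPM in tnf-alpha-1 to 594 CPM in mmp13.

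The spread between fish was also compared with that of all genes. The median biological coefficient of variation, which is the spread between fish of a diet beyond counting error, was 0.18 for the 29 tested members and 0.15 for all tested genes, at a median level of 12.7 and 12.1 CPM. The highest fish exceeded the lowest by 1.38 times in il6ra and by 8.06 times in il1r2, the least and the most among tested members. The value of il1r2 rests on 12 counts in FM replicate 3 and 2 in ACJ replicate 3, so it includes much counting error. ICJ replicate 2 was the highest of all fish in 5 of the 29, more than any other fish, while it was the highest in 6.79% of all genes. FM replicate 3 was the lowest in 6 of the 29, while it was the lowest in 8.75% of all genes with a single lowest fish.

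**Figure D5:**
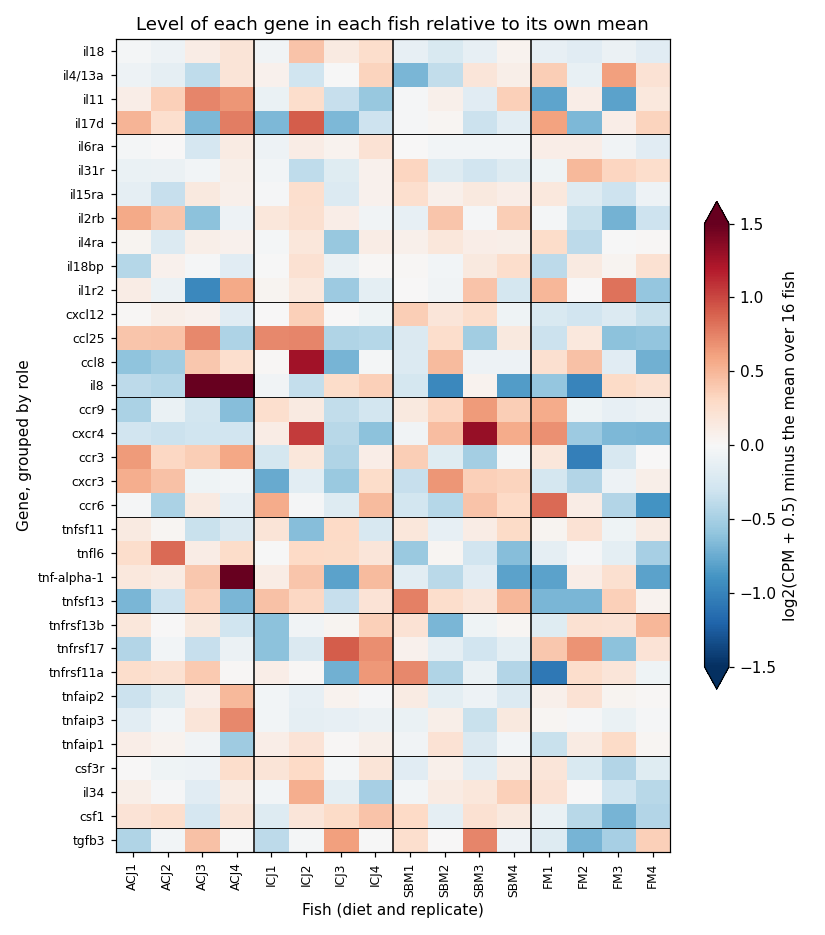
Level of each of the 34 genes (rows, grouped by role) in each of the 16 fish (columns, by diet), as log2(CPM + 0.5) minus the mean of the gene over 16 fish, with red above and blue below that mean. ACJ replicates 3 and 4 stand out in il8, ACJ replicate 4 in tnf-alpha-1 and tnfaip3, and ICJ replicate 2 and SBM replicate 3 in cxcr4, whereas il6ra is nearly even.

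The 7 gene IDs that had the letters but missed the level were tnf-alpha-2, il21, il17c, il17rd, tnfrsf6b, ccl21 and ccl28. The T cell cytokine il21 had 1 count in all and the mucosal cytokine il17c had 0. The gene ccl21, named ccl25a in the present annotation, had 36 counts in ACJ replicate 2 and 0 in every other fish. The TNF gene tnf-alpha-2 had 25 counts over 12 fish, with at most 5 in a fish. Another gene annotated as TNF alpha, LOC100136509, from the study's gene lists and so not independent evidence, was higher at 6.19, 9.17, 12.3 and 11.3 CPM in ACJ, 5.29, 3.15, 3.92 and 8.09 CPM in ICJ, 6.25, 4.21, 3.30 and 4.97 CPM in SBM, and 5.00, 8.02, 2.46 and 4.67 CPM in FM. ACJ had the highest mean with overlap, and the log2 fold change of LOC100136509 in ACJ|FM was 0.93 (SE 0.33, adjusted p 0.196 by edgeR). A further gene with the present symbol tnfa, LOC106589058, is counted among the relatives found by symbol. The copies share sequence and fragments that matched several places were left out of the counts, so the split among them is uncertain.

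Many salmon genes of the same families carry a LOC number in the count tables and were not reached by the letters. Of 39 such genes found by their present RefSeq symbol, 24 were tested and none was called by edgeR's test in any comparison, while DESeq2 called 1, LOC106613395, lower in ACJ|FM and for the soybean diets over FM. At an unadjusted p below 0.05 there were 3 of the 24 in ACJ|FM (12.5%, against 14.9% of all genes tested), 1 in ICJ|FM (4.17% against 9.26%) and 6 in SBM|FM (25% against 14.7%). The gene closest to the threshold was LOC106613395 (cxcr5, the receptor that leads B cells into follicles in mammals), with 8.89, 6.46, 6.03 and 13 CPM in ACJ, 17.3, 11.9, 18.8 and 21.7 CPM in ICJ, 10.4, 13.4, 13.7 and 12.6 CPM in SBM, and 20.2, 13.8, 25.2 and 16.8 CPM in FM. All ACJ and all SBM fish were below all FM fish, while ICJ overlapped with FM. In ACJ|FM the log2 fold change was -1.17 (SE 0.24) with an adjusted p of 0.0503 by edgeR. LOC106613395 was called there with no filter on low counts (0.0436), by the likelihood ratio test and without FM replicate 1, ICJ replicate 2 or 4 or ACJ replicate 4 (0.011 to 0.0476). The B cell marker sums were likewise without overlap in ACJ|FM and in SBM|FM, and their part in the level of LOC106613395 was not tested.

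A further 13 relatives were found by name in the study's own lists of changed genes, which were chosen on these fish, so their direction is not independent evidence. Of these, edgeR's test called 2 in ACJ|FM, 1 in ICJ|FM, 2 in SBM|FM and 4 for the soybean diets over FM. Over all genes tested the shares were 0.235%, 0.0104%, 0.432% and 0.992%. DESeq2 called 7, 2, 7 and 9 in the same order, against 2.8%, 1.27%, 3.67% and 4.37% of the genes it gave an adjusted p. As the lists hold genes already called on these fish, the counts cannot be set against these shares. The common gamma chain LOC106563704 (cytokine receptor common subunit gamma-like), the partner of il2rb and il4ra in mammals, had 50.2, 52.0, 56.1 and 49.0 CPM in ACJ, 58.5, 57.4, 51.1 and 57.9 CPM in ICJ, 51.0, 54.1, 49.7 and 54.3 CPM in SBM, and 42.0, 34, 34 and 35.2 CPM in FM. All 12 fish on soybean meal were above all FM fish. The log2 fold change of LOC106563704 over FM was 0.52 in ACJ (adjusted p 0.0239), 0.63 in ICJ (adjusted p 0.0107) and 0.53 in SBM (adjusted p 0.0177), and for the mean of the soybean diets the adjusted p was 0.0018 by edgeR. The pairwise calls of LOC106563704 were lost when only the fish of the 2 diets were fitted (adjusted p 0.0985, 0.336 and 0.0605). They were also lost without FM replicate 3 in all 3 comparisons, without FM replicate 2, ACJ replicate 1, 2 or 3 in ACJ|FM, without FM replicate 4 or ICJ replicate 1 in ICJ|FM, and without FM replicate 4 or SBM replicate 2 in SBM|FM, with adjusted p of up to 0.12, while the call for the soybean diets held in all 16 fits.

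Beside LOC106563704, the ligand of the ccr9 receptor had a second gene, LOC106613704 (C-C motif chemokine 25-like). It had 44.6, 49.6, 26.3 and 30.0 CPM in ACJ, 16.3, 23.7, 18.4 and 24.1 CPM in ICJ, 33.1, 37.5, 23.1 and 24.8 CPM in SBM, and 22, 16.2, 11.4 and 13.3 CPM in FM. The ACJ fish did not overlap with those on ICJ or FM, and all SBM fish were also above all FM fish. DESeq2 called LOC106613704 higher in ACJ|FM, in SBM|FM and for the soybean diets over FM. In ACJ|FM, the log2 fold change of LOC106613704, 1.26 (SE 0.24), was called by edgeR with an adjusted p of 0.0491. The call was lost without a filter on low counts (0.0678), with a filter of 0.5 CPM in 4 fish (0.0533) or when only the 8 fish were fitted (0.127). It was kept in only 3 of 16 fits with a fish left out (those without FM replicate 1, ICJ replicate 2 or ACJ replicate 4), with a range of 0.017 to 0.149. The ccl25 member itself had no call in any comparison, so the 2 genes for the same kind of ligand differed in their calls, a difference that was not tested.

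Among the receptors of the same lists, LOC106606173 (TGF-beta receptor type-2-like) had 65.6, 64.6, 64.9 and 62.8 CPM in ACJ, 60.0, 72.8, 70.5 and 66.5 CPM in ICJ, 73.6, 76.5, 90.5 and 66.8 CPM in SBM, and 54.8, 46.9, 61.9 and 56.7 CPM in FM. All SBM and all ACJ fish were above all FM fish, and ICJ overlapped with FM only through ICJ replicate 1. In SBM|FM the log2 fold change was 0.48 (SE 0.10) with an adjusted p of 0.0382 by edgeR. This call was lost without any of FM replicates 2 to 4, SBM replicates 1 to 3 or ACJ replicates 1 and 3 (up to 0.127) and when only the 8 fish were fitted (0.0853). DESeq2 called LOC106606173 higher in SBM|FM and for the soybean diets over FM. For the mean of the soybean diets over FM, edgeR's test called LOC106601618 (TNF receptor superfamily member 16-like) higher by 0.54 (SE 0.12, adjusted p 0.0417). It called LOC100136511 (CCL4-like chemokine) lower, with a log2 fold change of -0.59 (SE 0.13, adjusted p 0.0356), and LOC106567650 (interleukin-31 receptor subunit alpha-like) lower, with -0.65 (SE 0.15, adjusted p 0.0466). In LOC100136511 the soybean diets had 25.5 to 41.3 CPM except for 60.5 CPM in ICJ replicate 3, against 53.8 to 60.7 CPM in FM, and the gene lies on chromosome 16 (34513369 to 34514861) near ccl8 (34474846 to 34477652). In LOC106567650 the soybean diets had 13.8 to 25.9 CPM, and FM replicate 1, at 20 CPM, lay among them as it did in il31r. With a single fish left out, the call of LOC106601618 was kept only without FM replicate 1, SBM replicate 1, ICJ replicate 3 or 4 or ACJ replicate 4, with adjusted p of up to 0.191. That of LOC100136511 was lost without any of FM replicates 2 to 4, SBM replicates 2 and 3, ICJ replicate 1 or ACJ replicates 1 to 3 (up to 0.145). The call of LOC106567650 was kept only without FM replicate 1, SBM replicate 4 or ACJ replicate 3 or 4 (up to 0.231). It was also lost without a filter on low counts (adjusted p 0.0583 by edgeR) and with a filter of 0.5 CPM in 4 fish (0.0505).

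A further 3 of the 13, named here after their values were seen, were called by DESeq2 but not by edgeR's quasi-likelihood test. The other CCL4-like gene, LOC106608548, had 53.2, 48.5, 27.5 and 37 CPM in ACJ, 16.9, 51.6, 29.4 and 28.4 CPM in ICJ, 26.1, 36.8, 40.9 and 38.3 CPM in SBM, and 14.6, 11.9, 16.9 and 25.5 CPM in FM. All ACJ and SBM fish were above all FM fish. The log2 fold change of LOC106608548 was 1.27 in ACJ|FM, 1.05 in SBM|FM and 1.06 for the soybean diets over FM (adjusted p 0.118, 0.164 and 0.0917 by edgeR, and 0.00309, 0.0216 and 0.00221 by DESeq2), so the sign was opposite to that of LOC100136511. LOC106580524 (TNF receptor superfamily member 10B-like) had 23.4 to 34 CPM in SBM, against 45.3 to 81.7 CPM in FM, and was lower by DESeq2 in SBM|FM and for the soybean diets over FM. LOC106572807 (TNF receptor superfamily member 5-like) had 4.76 to 7.21 CPM in ACJ, against 14.9 to 22 CPM in ICJ and 6.88 to 21 CPM in FM, and was lower by DESeq2 in ACJ|FM and ACJ|ICJ.

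The signalling genes behind these receptors were taken from lists chosen by name. Of 16 JAK, STAT and SOCS genes, 14 were tested, and jak2, the kinase of several cytokine and growth factor receptors, was called lower in the soybean diets over FM. It had 39.9, 32.2, 41.4 and 41.3 CPM in ACJ, 46.8, 38.2, 45.0 and 54.1 CPM in ICJ, 50.9, 36.3, 41.6 and 47.3 CPM in SBM, and 48.7, 62.9, 59.5 and 56.3 CPM in FM. All ACJ fish were below all FM fish and the other diets overlapped with FM. The log2 fold change of jak2 was -0.41 (SE 0.10, adjusted p 0.0496 by edgeR). The call was lost with a filter of 0.5 CPM in 4 fish (0.0537) and with the hemoglobin genes removed (0.0508). Among the fits with a fish left out, it was kept only without FM replicate 1, SBM replicate 1, ICJ replicate 4 or ACJ replicate 4 (up to 0.195). Of 23 NF-kappaB and TRAF genes, 22 were tested, and of 23 TGF-beta receptor and SMAD genes, 20, with no call in any comparison by edgeR's test, while DESeq2 called 1 of them, LOC106567044 (acvrl1), higher in SBM|FM and in the soybean diets over FM. At an unadjusted p below 0.05, the NF-kappaB and TRAF genes counted at most 5 of 22, in SBM|FM (22.7%), and the TGF-beta receptor and SMAD genes at most 3 of 20, also in SBM|FM (15%), against 14.7% of all genes there. The JAK, STAT and SOCS genes had 4 of 14 lower in ACJ|FM (28.6%, against 14.9% of all genes), 2 in ICJ|FM (14.3% against 9.26%), 3 in SBM|FM (21.4% against 14.7%) and 3 for the soybean diets over FM (21.4% against 16.5%), and none higher in these. DESeq2 called jak2 lower in ACJ|FM and for the soybean diets over FM. It also called cish, an inhibitor of cytokine receptor signalling, lower in SBM|FM and for the soybean diets over FM, where edgeR's test gave -1.07 (adjusted p 0.0955) and -0.84 (adjusted p 0.0744). Among these 14, the median log2 fold change in ACJ|FM was -0.21. The median in SBM|FM was -0.08 for the JAK, STAT and SOCS genes, -0.06 for NF-kappaB and TRAF and 0.03 for TGF-beta receptors and SMADs.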

How the data were processed

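Total RNA of 16 spleens was sequenced from stranded mRNA libraries. The authors trimmed the reads, aligned them to ICSASG_v2 with HISAT2 2.1.0 and counted fragments per gene with featureCounts (1.4.6-p1 in the processing notes, 1.5.1 in the file headers). The deposited values are these raw counts, on the reverse strand, without fragments that matched several places or genes, so near-identical copies are counted on unique parts only. A row without a gene name (0.205 to 0.475% of the counts) was left out. Diets came from the sample labels, and the files' headers carry other library numbers, which were not used.

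From the counts, genes were filtered with filterByExpr and scaled by TMM in edgeR 4.0.16 (R 4.3.3). All 16 fish were fitted in a model with a mean per diet (glmQLFit, robust), and contrasts were tested with glmQLFTest and Benjamini-Hochberg adjustment over 28929 genes. CPM values are TMM-scaled, and the SE is the absolute log2 fold change over the root of F. The common biological coefficient of variation was 0.199. p-values measure the spread between these fish. Exact permutation tests were two-sided. The fit was tested on simulated data.

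Members and lists were chosen with earlier results of these data known. Genes named with values were members called, the 3 with the smallest p per pair of diets, the 2 highest per kilobase in each role, the 3 with the largest spread, and relatives with a LOC number that were called. Any others given with values were chosen after their values were seen. Exon lengths are the tables' own, and chromosome numbers were assigned to 29 sequences through RefSeq's table for Ssal_v3.1, from which current symbols were taken and no coordinates. Alternatives were DESeq2 1.42.0, edgeR's likelihood ratio test, RLE scaling, other filters, only the fish of a pair, a replicate block, removal of hemoglobin genes and each fish left out.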

Additional observations from a re-analysis of the deposited data

Results flagged for a closer look

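In 100 sets of 4 fish of a diet, from 25 genes, the highest or lowest fish was tested for its distance from the other 3 by Dixon's ratio at its 95% critical value, and 9 stood apart. For genes not chosen by their spread, chance gives about 1 in 20. The 25 genes were the named members, among them the 3 with the largest spread, and il8 and tnf-alpha-1, which were chosen after their values were seen. The number that stood apart can therefore not be set against that rate. Upward, il31r was at 94.2 CPM in SBM replicate 1 (others 61.5 to 65.9), ccl8 at 8.26 CPM in SBM replicate 2 (4.97 to 5.5), and cxcl12 at 144 CPM in ICJ replicate 2 (107 to 112). FM replicate 1 stood above the other FM fish in both ccr9, at 68 CPM (42.1 to 44), and cxcr4, at 41.1 CPM (15.7 to 17.3). ACJ replicate 4 was at 2.77 CPM in tnf-alpha-1 (0.451 to 0.655) and ACJ replicate 2 at 1.2 CPM in tnfl6 (0.524 to 0.639). The il6ra level of 184 CPM in SBM replicate 1 differed little from the 179 CPM of the others. Downward, csf1 was at 9.57 CPM in ACJ replicate 3 (13.2 to 13.8).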

How the results depend on the processing

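The number of members called in SBM|FM was 1, and it was 0 when only the fish of the 2 diets were fitted and 0 to 1 over the fits with a fish left out. For the soybean diets over FM it was 1, with 2 by DESeq2 (csf1 and cxcl12) and 0 to 4 with a fish left out, where the 4 came without FM replicate 1 (csf1, csf3r, cxcl12 and il31r). Calls over all genes rose in that fit too, to 1005 of 29350, against 287 of 28929 with all fish. The test for any difference gave 0, and 2 by DESeq2 (ccr9 and cxcl12). The cause of these differences was not tested. The other pairs kept 0 members called in every alternative run. Of 56 log2 fold changes recomputed, il6ra for the soybean diets over FM, which was close to 0, changed its sign, with -0.047 to 0.049 over the fits with a fish left out, and no other did. Over all genes, DESeq2 called 730 in SBM|FM, 869 for the soybean diets over FM and 473 in the test for any difference, against 125, 287 and 8 with edgeR, and with a fish left out the calls ran from 5 to 670, 8 to 1005 and 0 to 154.

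Replicate numbers did not clearly pair the fish. The correlation of deviations between same-numbered fish averaged from -0.13 in SBM|FM (lowest -0.22) to 0.061 in ACJ|ICJ. Single values reached 0.3, in ICJ|SBM. In each pair of diets, 0 to 2 of 4 fish correlated best with their own number. With the replicate number as a block, 1 member was called in SBM|FM, 1 for the soybean diets over FM (cxcl12 in both) and 0 elsewhere. The block ended the ICJ|FM call of LOC106563704 (adjusted p 0.0677) and changed no other call given here. The depth limits members below about 1 CPM, where a count of 0 allows up to 0.598 CPM.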
